A study of Mus musculus with 12 samples.

Results

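Neuronal splicing regulators are RNA-binding proteins that decide which exons of a pre-mRNA are kept, and 35 of their genes were followed here across the cortex of mice in which one alternative exon had been fixed. The 35 genes were chosen by name from 10 families, out of 41388 genes in the count table and 17441 that passed the filter on low counts. All 35 passed that filter. The fixed exon is exon 5 of Grin1, the gene of GluN1, the obligatory subunit of NMDA receptors. Adult C57Bl/6 mice gave 12 cortex libraries of poly(A) RNA, 3 in each of 4 groups. Group KI carried constitutive exon 5 (Grin1-exon5+/+) and group KI_WT held wild types of that knock-in line. Group KO lacked exon 5 (Grin1-exon5-/-) and group KO_WT held wild types of the knockout line. No treatment is given in the labels, and the titles give a separate animal for every library.

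Splicing regulators bind short sequence motifs in exons and in the introns beside them, and the position of the bound protein decides whether an exon is included or skipped. Nervous tissue makes an unusual set of them: PTBP1 gives way to its relative PTBP2 as neurons form, and RBFOX, NOVA, ELAVL, CELF, MBNL, STAR and SRRM4 proteins then set neuronal exon choice. The SR proteins and TRA2 factors, which mostly promote inclusion, and the hnRNP proteins, which often oppose it, are made in nearly all cells. Exon 5 of Grin1 is itself such a regulated cassette, included to different extents in different brain regions. With the exon fixed in the genome, the question open to gene-level counts is whether the levels of the regulators differ between the genotypes.

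The fixed exon and a cassette inside one of the regulators are shown because both are the kind of short exon these proteins act on. The 63-base cassette of Grin1, known as exon 5, lies at chr2:25311343-25311405, minus strand, in the GENCODE annotation of GRCm38. It is in 4 of 8 protein-coding transcripts and adds 21 codons. The Ptbp2 exon lies at chr3:119724612-119724645, minus strand, and its 34 bases are not a whole number of codons. It is present in 3 of 5 protein-coding transcripts, and 0 protein-coding transcripts span and skip it. The 2 transcripts annotated as targets of nonsense-mediated decay skip it. As background, PTBP1 represses this Ptbp2 exon in non-neuronal cells. Capitals mark a match to a motif of one regulator family.
Grin1 63-base exon: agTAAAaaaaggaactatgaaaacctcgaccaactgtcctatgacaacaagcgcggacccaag
Ptbp2 34-base exon: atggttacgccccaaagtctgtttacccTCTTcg

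The motifs searched in the 2 exons, on the transcribed strand only and with matches allowed to overlap, were TGCATG and GCATG for RBFOX, TCAT and CCAT for NOVA, TCTT and CTCTCT for PTB, and TGTGT for CELF. The others were TGCT and CGCT for MBNL, GGGG for hnRNP H and F, TAGGG for hnRNP A1, TTTTT for ELAVL, TTAA and TAAA for STAR, GAAGAA for TRA2 and GGAGA for SRSF1. The Grin1 exon held TAAA, which 17.1% of the 1018 coding exons of 63 bases also held. The Ptbp2 exon held TCTT, which 13.2% of the 151 coding exons of 34 bases also held. None of the other letters was in either exon, and the flanking introns were not analysed here.

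The libraries held 31790970 to 36514024 counts, of which the 35 genes took 0.619% to 0.713%. Grin1 itself was at 311 ± 20.8 CPM (counts scaled to library size with TMM factors; SD, n = 3) in KI, 319 ± 18.3 in KI_WT, 307 ± 35.7 in KO and 333 ± 27.6 in KO_WT. A gene-level count cannot show whether exon 5 was present, so it does not check the genotype labels. Neuronal markers were high in all libraries, with 12 of 12 detected and a summed level of 8064 to 9761 CPM (Rbfox3, a member here, is 1 of the 12). The dissections were not uniform. The 10 olfactory bulb markers summed to 399 CPM in KI_WT 3, 190.3 in KO_WT 3 and 166 in KO 1, against 15.99 to 85.0 in the other libraries, and the 10 cortical excitatory neuron markers were lowest in KO 1 (2941 CPM) and KI_WT 3 (3157 CPM). The Xist transcript was high in KI 2, KI 3, KI_WT 1, KO 1 and KO 2, so the sexes were mixed unevenly over the groups. In bulk RNA, fewer cells of a type and less RNA per cell cannot be told apart.

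The level of each regulator was compared between genes by RPKM, reads scaled by gene length and library size. The 35 means ran from 0.960 to 147 RPKM, with a median of 35.9. Of these, 3 were above 100 RPKM, 26 lay between 10 and 100, and 6 were below 10. The abundant end combined a nervous-system regulator, Celf4, at 147 ± 10.9 RPKM (SD over 12 libraries), with the widely made Hnrnpa1 at 147 ± 7.35 and Hnrnpa2b1 at 138 ± 11.4. The low end held Khdrbs2 at 0.960 ± 0.144, Srrm4 at 4.22 ± 0.410, Celf6 at 5.57 ± 1.36, Ptbp1 at 5.85 ± 0.447, Ptbp3 at 5.97 ± 0.758 and Nova2 at 9.79 ± 0.939. The label "neuronal" thus holds for some members by what they are known for and not for others, since hnRNP, SR and TRA2 genes, Elavl1 and Ptbp1 are not specific to neurons, and bulk tissue does not assign them to a cell type.

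**Figure D1:**
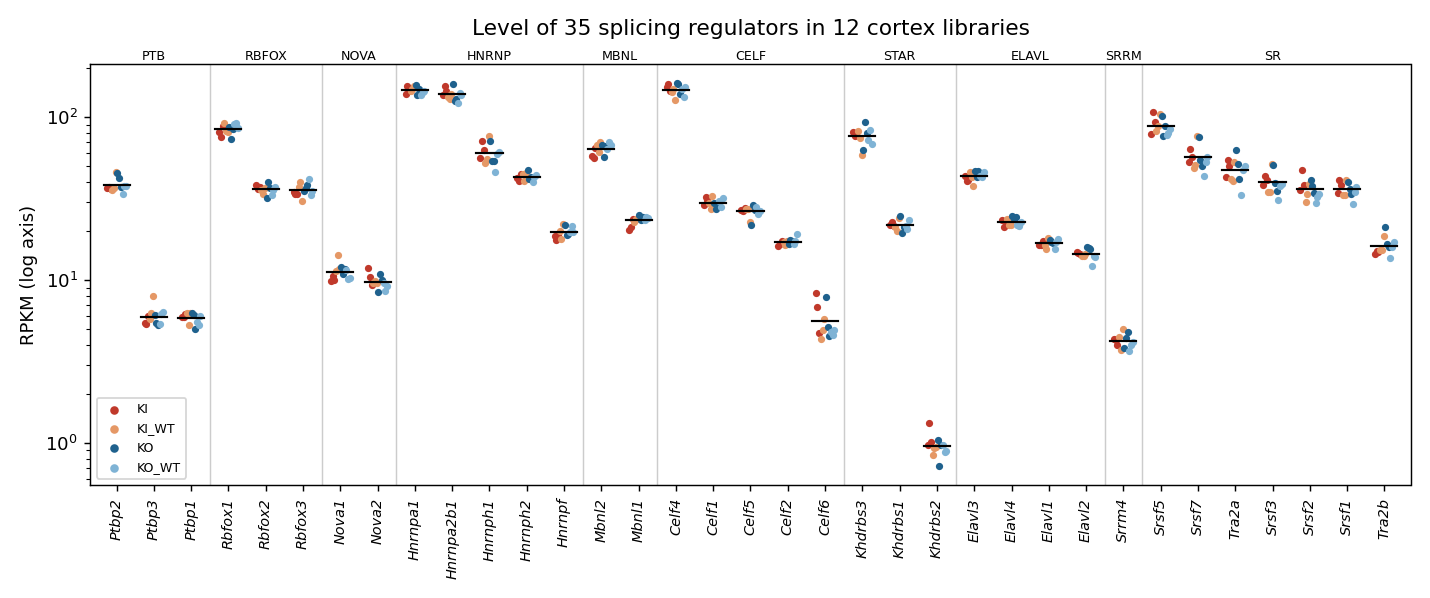
Deposited RPKM of each of the 35 genes (log axis) in the 12 libraries, grouped by family; points are single libraries coloured by group and black lines are means over the 12 libraries. Means run from 0.960 RPKM for Khdrbs2 to 147 for Celf4 and Hnrnpa1, and the 4 groups lie on top of each other for nearly every gene.

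Within the PTB family, Ptbp2, the neuronal repressor, stood well above its relatives. Its level was 38.6 ± 3.86 RPKM, and its ratio to Ptbp1 in the same library was 6.61 ± 0.610, from 5.66 in KI_WT 1 to 7.37 in KO 3. Ptbp3 and Ptbp1 did not separate: their ratio of means was 1.02 and Ptbp3 was the higher in 5 of 12 libraries. About 20.7% of the exonic bases of Ptbp1 are shared with antisense genes (Plppr3 is one), and the strand setting of the counts is not given in the sources used here.

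Among the RBFOX genes, whose proteins bind GCATG, Rbfox1 was at 84.6 ± 5.90 RPKM. Rbfox2 at 36.1 ± 2.28 and Rbfox3, the NeuN antigen of mature neurons, at 35.9 ± 3.10 had overlapping ranges, with Rbfox2 the higher in 7 of 12 libraries. The NOVA pair, which binds clusters of TCAT and CCAT in neuronal transcripts, overlapped as well: Nova1 was at 11.2 ± 1.21 RPKM and was above Nova2 in 10 of 12 libraries. Of the exonic bases of Nova2, 31.7% lie opposite the antisense gene Gm26821.

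The CELF genes spanned the widest range of the families with more than 3 members. Celf4, which is made mainly in neurons, was 4.93 times the next member, Celf1, at 29.9 ± 1.85 RPKM. Celf5 followed at 26.4 ± 2.10, Celf2 at 17.2 ± 0.764 and Celf6 at 5.57 ± 1.36. The ranges of Celf1 and Celf5 overlapped, and every other step in this order held in 12 of 12 libraries. As background, CELF2 is known from minigene work to act on the Grin1 exon studied here.

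In the STAR family Khdrbs3 (SLM2), a regulator of neurexin exons, was at 76.2 ± 9.58 RPKM. Khdrbs1 (SAM68), made in most cells, was at 21.8 ± 1.62, and Khdrbs2 (SLM1) was 22.8 times lower than Khdrbs1. Mbnl2, the main brain muscleblind protein, was at 64.2 ± 5.14 RPKM and Mbnl1 at 23.4 ± 1.37, a ratio of 2.75 ± 0.152. The neuronal ELAVL genes followed the order Elavl3 (43.4 ± 2.70), Elavl4 (22.7 ± 1.28) and Elavl2 (14.5 ± 1.014 RPKM). Elavl1 (HuR), the member made in all tissues, lay between the last of them and Elavl4 at 16.9 ± 0.836 RPKM and was above Elavl2 in 12 of 12 libraries, although their ranges overlapped.

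Among the hnRNP genes, Hnrnpa1 was above Hnrnpa2b1 in 10 of 12 libraries, with overlapping ranges. Hnrnph1 was at 60.02 ± 9.10 RPKM, Hnrnph2 at 43.2 ± 2.32 and Hnrnpf at 19.7 ± 1.49. These 3 encode proteins that bind runs of G. Exon sequence is shared with processed copies elsewhere in the genome: 46.7% of the 50-base windows of Hnrnpa1, 43.2% of those of Hnrnpf and 15.9% of those of Hnrnph2 occur in other genes. The pseudogenes concerned held 0.358%, 0.365% and 0.0310% of the parent gene's counts, so the authors' counting gave few reads to them, and how shared reads were treated is not given in the sources used here. Of the exonic bases of Hnrnpf, 26.45% are also shared with antisense genes (Gm43863 is one). The levels of Hnrnpa1, Hnrnpf and Hnrnph2 are therefore uncertain.

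Of the 7 SR and TRA2 genes, Srsf5 was highest at 88.6 ± 10.9 RPKM and Tra2b lowest at 16.2 ± 2.01. Srsf7 was at 57.04 ± 10.02, Tra2a at 47.6 ± 7.96 and Srsf3 at 39.8 ± 6.22. Srsf2 and Srsf1 did not separate, at 36.1 ± 4.96 and 36.0 ± 3.55 RPKM. Shared windows make up 31.5% of Srsf3, 23.6% of Srsf5 and 17.6% of Tra2b, and 25.3% of the exonic bases of Srsf2 lie opposite Mfsd11 and Mettl23, so these levels carry the same uncertainty.

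The comparison of KI with KI_WT asks whether constitutive exon 5 goes with other regulator levels. No member passed the test: 0 of 35 had an adjusted p under 0.05 (edgeR quasi-likelihood, Benjamini-Hochberg), as did 0% of all genes tested. At an unadjusted p under 0.05 there were 2 of 35 members, Nova1 and Ptbp3, beside 6.96% of all genes. The members' median log2 fold change was -0.04 with 11 higher and 24 lower, and the median over all genes was -0.01. With RLE size factors the split was also 11 and 24, and with limma on log2(RPKM + 0.1) it was 20 higher and 15 lower. RPKM is scaled by library total, without TMM factors. For 5 members the KI and KI_WT libraries did not overlap, Khdrbs2 higher and Nova1, Ptbp2, Hnrnpa1 and Tra2b lower, beside 12.2% of all genes. The 95% intervals of 34 of the 35 lay within a 1.5-fold difference in either direction, and that of Celf6 reached 0.80 on the log2 scale.

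Nova1 (ENSMUSG00000021047, GRCm38 chromosome 12, 46694517 to 46818929, minus strand) had the smallest p. Its level was 68.5, 69.9 and 70.5 CPM in KI, against 81.9, 102 and 80.9 in KI_WT. The KI libraries were all below the KI_WT libraries, and KI_WT 2 stood above every other library. In the knockout line the values were 81.7, 74.5 and 82.0 CPM for KO and 83.5, 72.3 and 72.6 for KO_WT, so the KI libraries were the lowest of the 12. The log2 fold change of Nova1 was -0.34 (SE 0.10, unadjusted p 0.0035, adjusted p 0.705). Without KI_WT 2 it was -0.23, and with terms for the olfactory bulb, thalamus and choroid plexus markers it was -0.19, with an unadjusted p of 0.18. The summed thalamus markers did not overlap between KI and KI_WT, so these terms cannot tell tissue and genotype apart. Within the Xist-low libraries (1 KI, 2 KI_WT) the log2 ratio was -0.42, and within the Xist-high ones (2 KI, 1 KI_WT) it was -0.22.

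Ptbp3, a PTB relative known from blood cells, came next. It was at 40.2, 38.0 and 45.4 CPM in KI and 44.1, 48.0 and 59.3 in KI_WT. The groups overlapped, and the highest value was that of KI_WT 3, the library richest in olfactory bulb markers. The log2 fold change was -0.29 (SE 0.11, adjusted p 0.705), and -0.16 without KI_WT 3. Mbnl2 was at 259, 241 and 296 CPM in KI and at 315, 287 and 318 in KI_WT, which gave -0.21 on the log2 scale (SE 0.10, adjusted p 0.719). KI 1 and KI 2 were below all 3 wild types, and KI 3 lay among them. Its relative Mbnl1 gave -0.15 (SE 0.07), with KI 1 and KI 2 at 113 and 112 CPM and the other 10 libraries at 127 to 138.

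**Figure D2:**
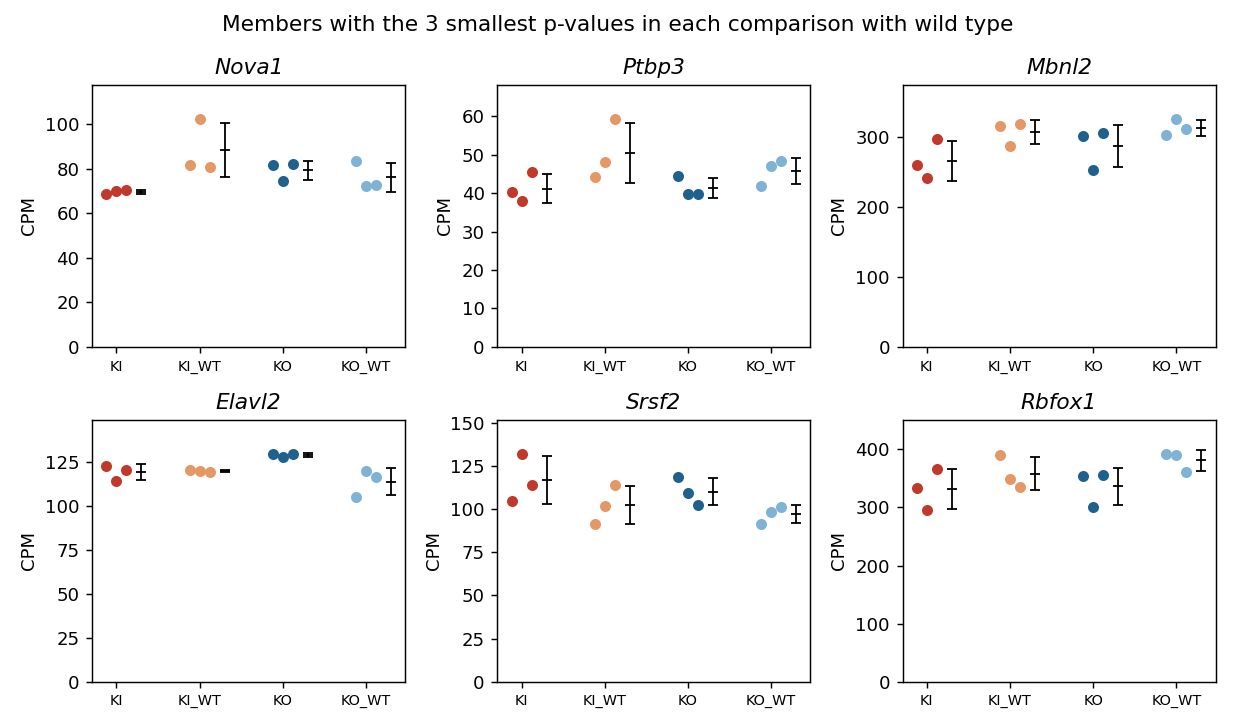
TMM-scaled CPM of the 3 genes with the smallest p in KI against KI_WT (Nova1, Ptbp3, Mbnl2, top row) and in KO against KO_WT (Elavl2, Srsf2, Rbfox1, bottom row); points are libraries, and the black bar gives the mean and SD of 3. The KI points of Nova1 lie at 68.5 to 70.5 CPM, under every other library, and none of the 6 genes passed the adjusted threshold in either comparison.

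For the remaining families, the direction in KI was given by few members of any size. The 3 PTB genes were all lower in mean (median log2 fold change -0.15), as were the 4 ELAVL genes (median -0.06, from -0.08 for Elavl4 to -0.01 for Elavl2) and Srrm4, the microexon activator (-0.11, SE 0.11). With limma on log2(RPKM + 0.1) 1 of the PTB directions (Ptbp1, 0.02) and 2 of the ELAVL directions (Elavl1, 0.01, and Elavl2, 0.04) turned. Without KI_WT 3 Srrm4 was at -0.02 and Ptbp2 at -0.05 (all libraries, -0.15). Of the RBFOX genes, Rbfox3 had the smallest p, at -0.13 (SE 0.12, and -0.04 without KI_WT 2), and of the hnRNP genes Hnrnpf, at -0.16 (SE 0.09, and -0.10 without KI_WT 3). Celf6 had the largest positive value of the 35, 0.34 (SE 0.21). It rested on KI 1 at 29.9 and KI 2 at 23.2 CPM, while KI 3 at 17.1 lay among the KI_WT values of 16.3, 18.4 and 20.7. Without KI 1 the value of Celf6 was 0.14, and without KI 3 it was 0.54. Khdrbs2, at 9.90, 12.9 and 10.4 CPM in KI and 8.92, 9.81 and 9.59 in KI_WT, gave 0.23 (SE 0.15), and 0.11 without KI 2.

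Markers of regions and cell types also differed in mean between KI and KI_WT, with no call. Of the thalamus markers 9 of 10 were higher in KI, 6 of them with an unadjusted p under 0.05, and their sum ranged from 466 to 607 CPM in KI and from 297 to 456 in KI_WT. Markers of oligodendrocyte precursors were higher for 7 of 8 (sums of 357 to 379 CPM against 269 to 344) and those of microglia for 9 of 10 (506 to 523 against 468 to 559). Olfactory bulb markers were lower for 9 of 10, with sums of 41.5 to 85.0 CPM in KI and 16.7 to 399 in KI_WT. Cortical excitatory neuron markers were lower in KI for 9 of 10, with sums of 3496 to 4467 CPM against 3157 to 5011 in KI_WT. Choroid plexus markers were higher for 8 of 9, with sums of 1468 to 2990 against 351 to 2769. At an unadjusted p under 0.05 there were also 3 precursor markers and 1 microglia marker, all higher in KI. There were 0 in the olfactory bulb, excitatory and choroid plexus lists, and the share over all genes was 6.96%. No marker of these lists was at 0, and beyond the regional terms their part in the members' values was not tested.

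The comparison of KO with KO_WT asks the same of the removed exon. Here 0 of 35 members passed the adjusted threshold, beside 0.00573% of all genes, which is 1 gene and no member. Elavl2 alone had an unadjusted p under 0.05, 1 of 35 members beside 7.22% of all genes. The median log2 fold change of the members was 0.01, with 20 higher and 15 lower (26 and 9 with limma on log2(RPKM + 0.1)), and that of all genes was 0.01. Groups did not overlap for 4 members, Elavl2, Elavl4 and Srsf2 higher and Rbfox1 lower, beside 12.4% of all genes.

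Elavl2 (HuB; ENSMUSG00000008489, GRCm38 chromosome 4, 91250763 to 91400785, minus strand), which stabilises and splices neuronal transcripts, was at 129.6, 127.8 and 129.5 CPM in KO. In KO_WT it was at 105, 119.8 and 116 CPM. All KO libraries were above all KO_WT libraries, and KO_WT 1 was the lowest of the 12. The log2 fold change was 0.18 (SE 0.06, unadjusted p 0.015, adjusted p 0.678). With the regional marker terms it was 0.08, and within the lower and the higher range of animal numbers, which divide this line, the log2 ratio was 0.13 (1 KO, 2 KO_WT) and 0.29 (2 KO, 1 KO_WT).

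Srsf2 (SC35), an SR protein that promotes exon inclusion, stood at 118, 109 and 102.45 CPM in the KO libraries and at 91.5, 98.2 and 101.51 in those of KO_WT, a log2 fold change of 0.18 (SE 0.10, adjusted p 0.692). The groups did not overlap, but the lowest KO and the highest KO_WT library differed by less than 1 CPM. With the regional marker terms the value was 0.09. Rbfox1 read 354, 300.1 and 355 CPM in the KO libraries and 392.4, 389.7 and 361 in the KO_WT ones, which gave -0.18 (SE 0.10, adjusted p 0.693). KO 2 was far below the other libraries of this line, and without it the value was -0.10. With the regional marker terms it was -0.09. The other RBFOX genes gave -0.02 and -0.05, and with limma on log2(RPKM + 0.1) both turned positive (Rbfox2, 0.02, and Rbfox3, 0.01).

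**Figure D3:**
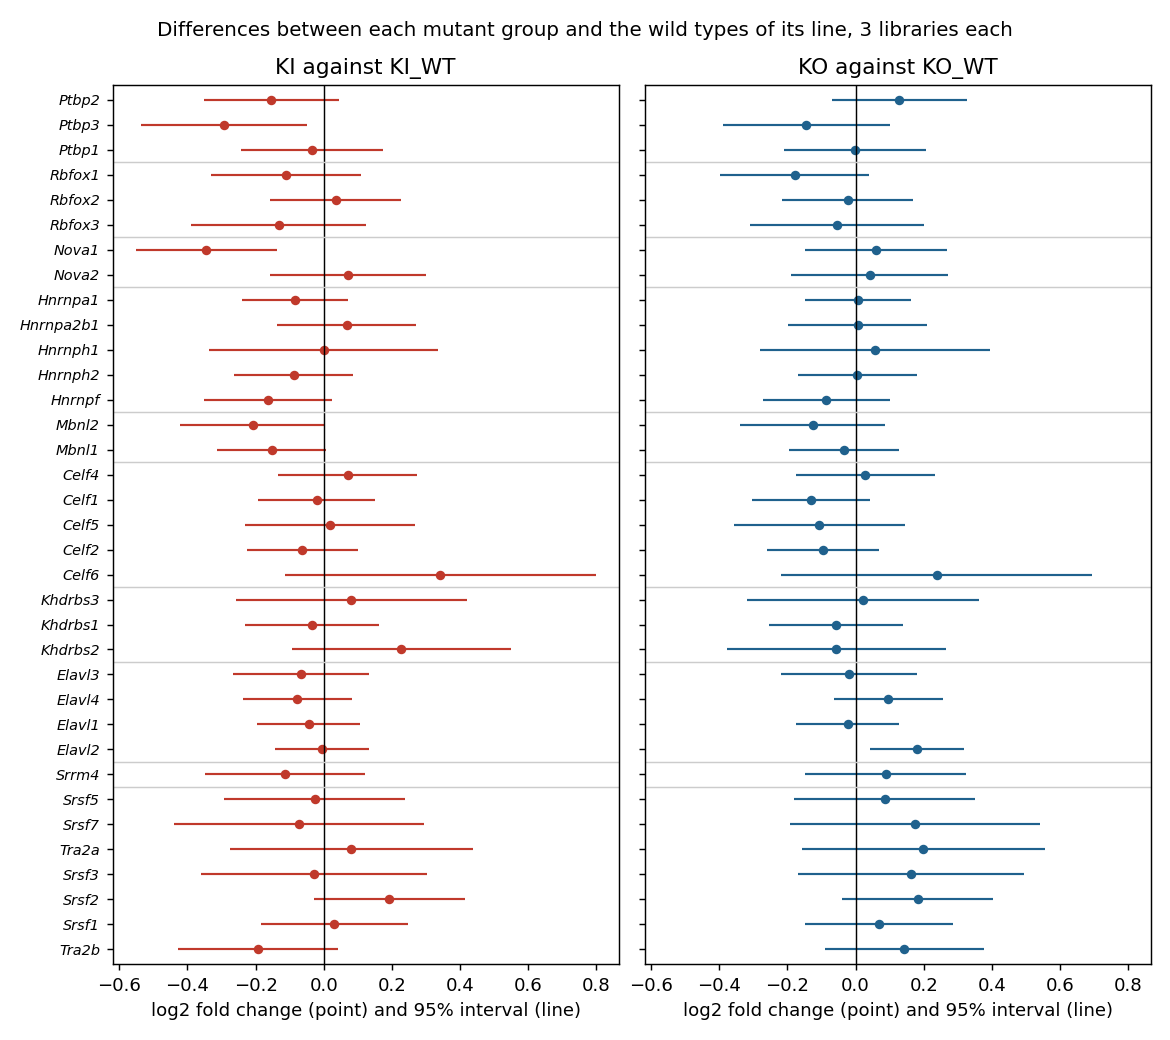
Log2 fold change (point) and 95% interval (line) of each of the 35 genes in KI against KI_WT (left) and KO against KO_WT (right), grouped by family. Nova1 and Ptbp3 on the left and Elavl2 on the right have intervals that leave 0 out before adjustment, and no gene passed after adjustment over 17441 genes.

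Other family members of smallest p or highest level ranged from -0.13 to 0.13 in the knockout comparison. Ptbp2 gave 0.13 (SE 0.09), Mbnl2 -0.13 (SE 0.10), Celf1 -0.13 (SE 0.08) and Khdrbs1 -0.06 (SE 0.09). Hnrnpf gave -0.09 (SE 0.09), Srrm4 0.09 (SE 0.11) and Nova1 0.06 (SE 0.10). Single libraries moved these values: without KO 2 Mbnl2 was at -0.04, Celf1 at -0.09 and Khdrbs1 at 0.03, and without KO 1 Ptbp2 was at 0.07. Mean levels of markers of other cell types differed in the same comparison, without a call: those of 10 of 10 oligodendrocyte, 8 of 8 oligodendrocyte precursor, 9 of 10 microglia, 9 of 9 striatum, 8 of 8 mural and 10 of 10 endothelial markers were lower in KO, and those of 10 of 10 thalamus and 9 of 9 choroid plexus markers were higher. The summed oligodendrocyte markers ranged from 4997 to 10880 CPM in KO and from 9110 to 11780 in KO_WT, the mural sum from 224 to 292 against 290 to 335, and the endothelial sum from 363 to 468 against 473 to 512. The precursor sum ranged from 291 to 356 CPM in KO and from 357.8 to 396 in KO_WT, the microglia sum from 475 to 501 against 519.6 to 570.2, and the striatum sum from 510.5 to 1459 against 870.3 to 1244. Astrocyte markers were lower in KO for 8 of 10, with sums of 5258 to 7498 CPM against 7674 to 8284. Those of cortical excitatory neurons were lower for 7 of 10, with sums of 2941 to 4441 against 4261 to 4954. The thalamus sum ranged from 369 to 649.5 against 274 to 459.5, the choroid plexus sum from 1224 to 1734 against 324 to 1718, and none of these markers was at 0. At an unadjusted p under 0.05 there were 4 thalamus markers, all higher in KO. Lower in KO at that p were 4 endothelial, 3 mural, 3 precursor, 3 astrocyte and 2 microglia markers. The other lists of this paragraph had 0, and the share over all genes was 7.22%. The part of these markers in the members' values was not tested gene by gene beyond the regional terms given above.

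Of the 7 SR and TRA2 genes 0 passed in either line, and their values rested on few libraries. In KO against KO_WT all 7 had higher means (median log2 fold change 0.16, from 0.07 for Srsf1 to 0.20 for Tra2a). Without KO 1 the median was 0.02, with 5 higher and 2 lower, and without KO_WT 1 it was 0.08. With the regional marker terms it was 0.00 (-0.00014), with 3 higher and 4 lower. In KI against KI_WT 3 were higher and 4 lower, with a median of -0.03. Between the wild types all 7 were higher in KI_WT than in KO_WT (median 0.08), and without KI_WT 3 there were 1 higher and 6 lower (median -0.02). For KO against KO_WT the median log2 ratio was 0.29 within the lower range of animal numbers (1 KO, 2 KO_WT) and 0.19 within the higher (2 KO, 1 KO_WT), and within the Xist-low libraries (1 KO, 3 KO_WT) it was -0.01.

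By library, the mean deviation of the 7 from their own averages was 0.27 on the log2 scale in KO 1 and 0.24 in KI_WT 3, and -0.25 in KO_WT 1. Srsf7, an SR protein also linked to RNA export, was at 172 CPM in KI_WT 3 and 168 in KO 1, against 104 in KO_WT 1 and 115 to 137 in the others. Tra2a had its highest level, 112 CPM, in KO 1 and its lowest, 63.8 CPM, in KO_WT 1. In 4 of the 7 (Srsf3, Srsf7, Tra2a and Tra2b) KI_WT 3 and KO 1 were the 2 highest libraries, and in 5 of the 7 KO_WT 1 was the lowest. Srsf2 and Srsf5 differed from this order, with Srsf2 highest in KI 2 and Srsf5 lowest in KO 2. KI_WT 3 and KO 1 are of opposite lines and both are among the 3 libraries with over 100 CPM of olfactory bulb markers, while the remaining one, KO_WT 3, had a mean deviation of 0.03. After KO 1 and KI_WT 3, the mean deviation was highest in KI 2 (0.11). These 3 libraries were also lowest in summed cortical excitatory neuron markers (2941, 3157 and 3496 CPM). They were highest in summed interneuron markers (1434, 1743 and 1474 CPM). KO_WT 1 and KI_WT 1 (-0.12), lowest in mean deviation, were highest in the excitatory sum (4954 and 5011 CPM). KI 1 broke this order, at -0.10 with 4191 CPM. The part of tissue or cell type in the SR values was not tested beyond the regional terms, which hold neither of these 2 lists.

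**Figure D4:**
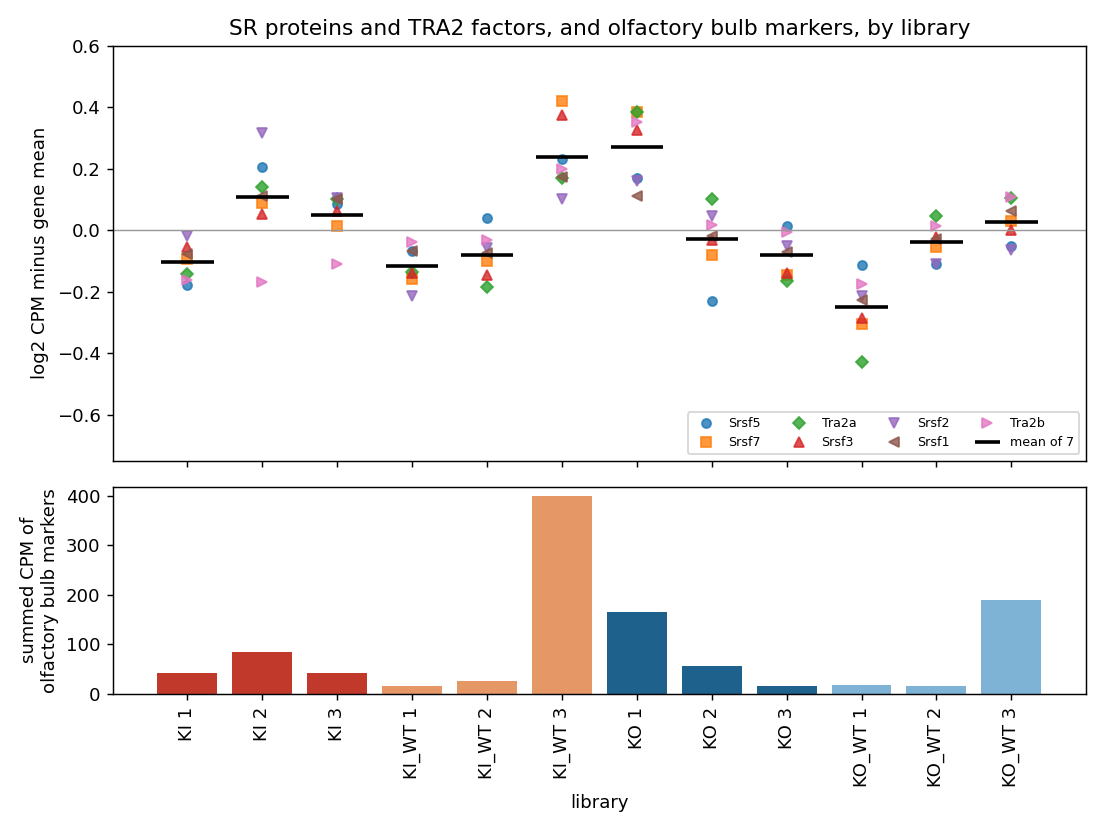
Top, log2 CPM of the 7 SR and TRA2 genes in each library minus the gene's own mean over 12 libraries, with the mean of the 7 as a black line; bottom, summed CPM of 10 olfactory bulb markers. The mean line is highest in KO 1 (0.27) and KI_WT 3 (0.24) and lowest in KO_WT 1 (-0.25), and the bars are highest in KI_WT 3 (399 CPM), KO_WT 3 (190.3) and KO 1 (166).

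Upstream sequences of the 2 SR and TRA2 genes that varied most between libraries are shown because both had KI_WT 3 and KO 1 as their 2 highest libraries and KO_WT 1 as their lowest. They are the 250 bases before the transcript start in RefSeq (GRCm38.p6), read on the gene's strand, and capitals mark matches to any motif searched. Srsf7 is at chr17:80207306-80207555 and Tra2a at chr6:49264053-49264302, both on the minus strand.
Srsf7 upstream: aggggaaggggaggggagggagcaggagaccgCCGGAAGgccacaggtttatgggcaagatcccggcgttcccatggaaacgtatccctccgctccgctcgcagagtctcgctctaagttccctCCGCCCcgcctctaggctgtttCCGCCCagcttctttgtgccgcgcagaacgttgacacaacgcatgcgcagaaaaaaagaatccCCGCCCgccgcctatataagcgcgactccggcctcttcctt
Tra2a upstream: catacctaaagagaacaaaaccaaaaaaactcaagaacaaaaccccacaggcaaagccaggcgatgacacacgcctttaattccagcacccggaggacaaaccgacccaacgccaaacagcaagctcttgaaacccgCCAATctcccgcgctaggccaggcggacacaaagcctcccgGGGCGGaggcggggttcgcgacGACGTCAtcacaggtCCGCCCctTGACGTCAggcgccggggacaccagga

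The motifs, searched on both strands, were the GC box GGGCGG, the CCAAT box, the ETS motif CCGGAAG and the cyclic AMP response element TGACGTCA, with its shorter form TGACGTC counted inside it. The others were the YY1 motif AAGATGGC, the TATA box as TATAAA and the E-box CACGTG. Of 35 members 30 had RefSeq promoters (57 in all). The GC box was upstream of 6 of the 7 SR and TRA2 genes and in 32.7% of all 32851 promoters, CCAAT was upstream of 3 and in 33.9% of all, and CCGGAAG upstream of 2 and in 6.91%. TATAAA was upstream of 2 and in 12.4% of all, while the YY1 motif (1.56% of all) and the E-box (6.02%) were upstream of 0. Among all members TGACGTC was upstream of Tra2a, Tra2b and Celf6, and 2.78% of all promoters held it. No searched motif was upstream of all 7. The median GC content was 58.8% for members' promoters and 52.4% for all. No promoter was matched for Celf4, Khdrbs1, Khdrbs3, Ptbp3 and Rbfox2.

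Over the 12 libraries the members' coefficients of variation had a median of 8.98% (4.36% for Hnrnpa1 to 22.5% for Celf6), beside 12.1% for all tested genes. The 10097 tested genes between the lowest and the highest member in mean CPM had a median of 8.85%, at a median level of 42.2 CPM against 140.3 for the members. After Celf6, the most variable were Srsf7 at 15.8%, Tra2a at 14.8%, Srsf3 at 13.9% and Hnrnph1 at 13.4%. Celf6 was at 29.9 CPM in KI 1, 27.9 in KO 1 and 23.2 in KI 2, and at 16.3 to 20.7 in the other 9 libraries. Its high values came from some libraries of each mutant group. The mutant libraries KI 3, KO 2 and KO 3 (17.1, 18.2 and 16.6 CPM) lay among the wild types. KI_WT 3 or KO 1 was the highest library for 17 of the 35 members, and KI 2 was the lowest for 9. Highest and lowest libraries were not counted over all genes, so these counts cannot be read as particular to the members. Khdrbs3 was lowest in KI_WT 3 (110.1 CPM) and KO 1 (115), as were Celf5 (151 and 142), whereas Hnrnph1 was highest in them (442 and 408).

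**Figure D5:**
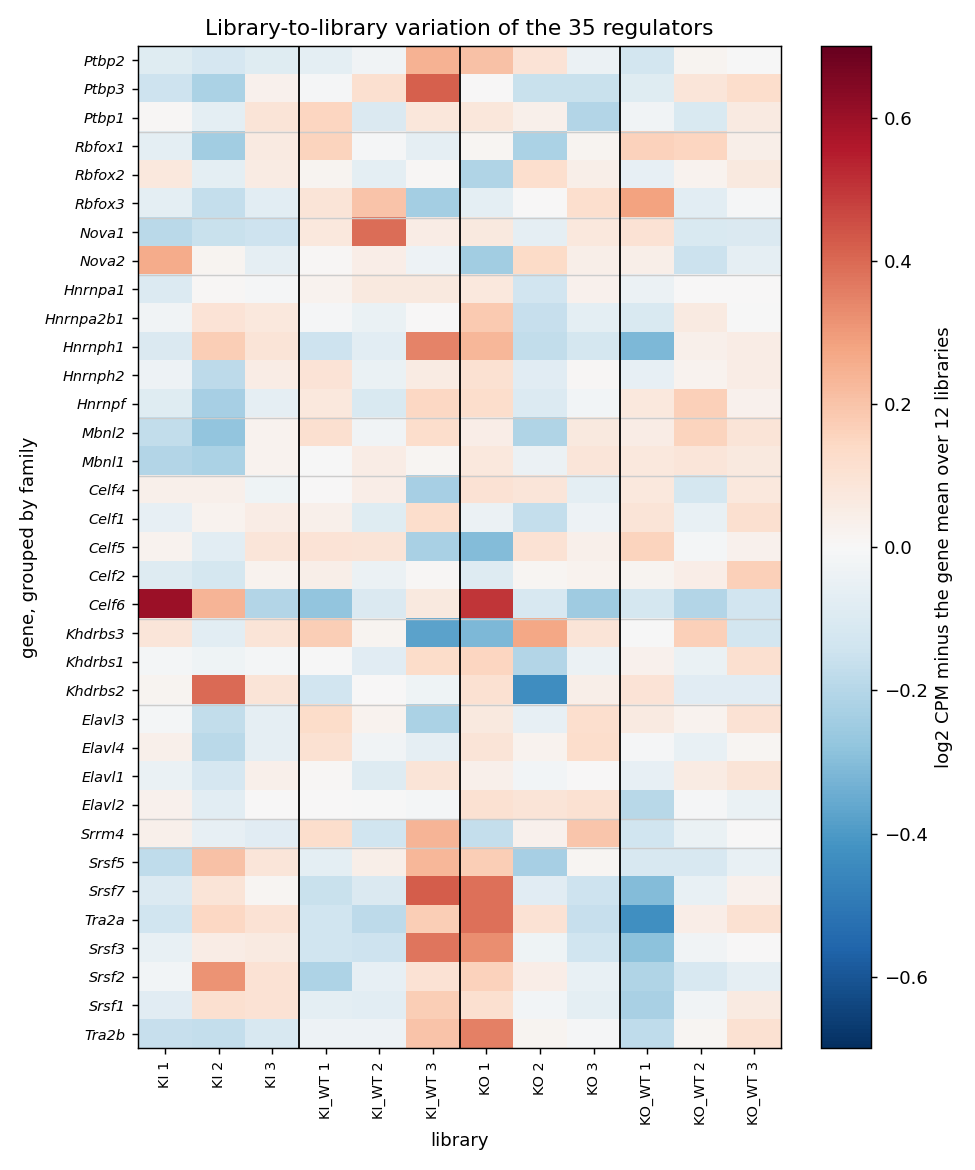
Log2 CPM of each of the 35 genes minus its mean over the 12 libraries (colour, clipped at 0.7 either way), with genes grouped by family and black lines between the 4 groups. Columns KI_WT 3 and KO 1 are the 2 highest for 4 of the 7 SR and TRA2 genes at the bottom, and Celf6 is the gene with the widest range.

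Comparing the mutants directly, exon 5 always present against always absent, gave 0 of 35 members past the adjusted threshold, beside 0.00573% of all genes. Tra2b and Mbnl1 had an unadjusted p under 0.05 (2 of 35, beside 5.43% of all genes), and 5 members did not overlap, all lower in KI (Tra2b, Ptbp2, Nova1, Elavl2 and Rbfox3), beside 10.2% of all genes. Tra2b, an activator of exons rich in GAA, was at 77.3, 77.1 and 80.2 CPM in KI and 110.4, 87.7 and 86.2 in KO, a log2 fold change of -0.28 (SE 0.11, adjusted p 0.905), and -0.15 without KO 1. The 3 KI values were close together and below all KO values, of which KO 1 was far the highest. Mbnl1 was at 113, 112 and 132 CPM in KI and 137, 127 and 138 in KO (-0.17, SE 0.07, adjusted p 0.905). Ptbp2 was at 122, 119 and 122 CPM in KI and 149, 138 and 126 in KO (-0.19, SE 0.09, adjusted p 0.905), and -0.12 without KO 1. This comparison crosses the lines and shares its libraries with both earlier comparisons.

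The wild types of the 2 lines, which differ by no designed allele, gave 0 of 35 members past the threshold, as for 0% of all genes. Nova1 had an unadjusted p under 0.05, 1 of 35 beside 1.96% of all genes. Its value was 0.21 higher in KI_WT than in KO_WT on the log2 scale (SE 0.10, adjusted p 0.9998), and 0.10 without KI_WT 2. Its KI_WT libraries at 81.9, 102 and 80.9 CPM overlapped those of KO_WT. Srsf5 at 335, 361 and 413 CPM in KI_WT and 325, 325 and 339 in KO_WT gave 0.17 (SE 0.12), and Srrm4 at 36.1, 30.1 and 39.1 against 30.1, 32.1 and 33.2 CPM gave 0.14 (SE 0.11). The groups overlapped for Srsf5 and for Srrm4, and without KI_WT 3 their values were 0.08 and 0.06. Hnrnpa1 (higher in KI_WT) and Mbnl1 (lower) were the 2 members without overlap, beside 7.31% of all genes.

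The difference between the knock-in and the knockout effect was tested as a term of its own. No member passed (0 of 35, beside 0.00573% of all genes). Nova1, Tra2b and Ptbp2 had an unadjusted p under 0.05, 3 of 35 beside 5.26% of all genes. The differences on the log2 scale, KI effect minus KO effect, were -0.40 (SE 0.13) for Nova1, -0.34 (SE 0.15) for Tra2b and -0.28 (SE 0.13) for Ptbp2, each with an adjusted p of 0.918. For each of the 3 the KI effect was negative (-0.34, -0.19 and -0.15) and the KO effect positive (0.06, 0.14 and 0.13). The difference was -0.28 for Nova1 without KI_WT 2. For Tra2b it was -0.25 without KI_WT 3 and -0.21 without KO 1, and for Ptbp2 it was -0.17 and -0.22 in that order. The KI effects of Tra2b and Ptbp2 without KI_WT 3 were -0.11 and -0.05.

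The wider splicing machinery gave no calls either. In KI against KI_WT and in KO against KO_WT, 0 of 25 other hnRNP genes and 0 of 15 other SR genes and their kinases passed the adjusted threshold. Also 0 of 15 tested genes in a mixed list of further splicing regulators (of 19 listed) and 0 of 37 core spliceosome genes passed it. This held in either direction. Smallest p-values in KI went to Hnrnpm (0.23, SE 0.09), Srsf9 (0.15, SE 0.08), Tia1 (-0.25, SE 0.13) and the Sm protein gene Snrpe (0.38, SE 0.12). In KO they went to Pcbp1 (0.16, SE 0.07), Srrm2 (-0.19, SE 0.13), Rbm11 (0.30, SE 0.13) and the U1 component Snrpc (0.23, SE 0.09), all as log2 fold changes. List medians ran from -0.07 for the other hnRNP genes to 0.04 for the core spliceosome in KI, and from 0.01 for the other hnRNP genes to 0.06 for the mixed list in KO.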

How the data were processed

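Poly(A) RNA-seq of 12 cortex libraries was analysed from 2 deposited tables. Reads were handled by the authors with bcl2fastq 2.17, STAR 2.5.0c and GRCm38, per the submitters' processing notes, where Cufflinks 2.2.1 is also named without its role. The read counter, annotation and strand setting are not given in the sources used here. The deposited counts are whole numbers per Ensembl gene, and the deposited RPKM values by the authors are those counts scaled by length and library total (implied lengths equal to within 0.0790% over 8292 genes).

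Counts were fitted with edgeR 4.0.16 in R 4.3.3: filterByExpr with 4 groups, TMM, and a quasi-likelihood model with 1 mean per group over all 12 libraries, with Benjamini-Hochberg adjustment over 17441 genes within each of 5 comparisons and a threshold of 0.05. The biological coefficient of variation was 15.7%. RPKM served to compare genes. No overlap means that all libraries of one group lay above all of the other. The fit was tested on simulated data. Alternatives used RLE factors, other filters, DESeq2 1.42.0, limma 3.58.1 (voom, and log2 of RPKM plus 0.1 or 1), the compared groups alone, terms for animal number range, sex or regional markers, and each library left out. The regional markers themselves differed in mean between the groups, so their terms cannot fully separate tissue from genotype.

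Grin1 was named, then the 3 members of smallest p per comparison, and per family the most abundant member and that of smallest p. For the other lists the gene of smallest p was named. Non-overlapping members, the most variable members, Khdrbs2 and the printed upstream sequences were chosen after their values were seen. The members and all lists were chosen with earlier results of these data known. Exons, overlaps and 50-base windows come from GENCODE release 21 for mouse. The label-based replicate order follows the sample records and pairs nothing.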

Additional observations from a re-analysis of the deposited data

How the results depend on the processing

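No member was called in any comparison under any alternative: over 18 settings in each of 4 comparisons and 23 for the difference of effects, the smallest adjusted p of a member was 0.427 for the knock-in effect, 0.277 for the knockout effect, 0.412 between the mutants, 0.477 for the difference of effects and 0.700 between the wild types. Members at an unadjusted p under 0.05 numbered 1 to 5, 0 to 4, 0 to 2, 1 to 4 and 0 to 5 in that order. Over all genes tested, 17441 in the main fit, the numbers were 614 to 1730, 496 to 2636, 542 to 1730, 645 to 1605 and 247 to 1160. The sign of a member's value turned in 70 of 630, 83 of 630, 59 of 630, 76 of 805 and 77 of 630 values, in each case with an unadjusted p of 0.05 or more before and after. Counts of genes called over the whole table were small and moved: without a filter KI against KO had 2. DESeq2 gave 5 for KO against KO_WT, 12 for KI against KO, 5 for the difference and 1 between wild types. With the compared groups alone there were 1 for KI against KI_WT, 0 for KI against KO and 1 for the wild types. The difference had 0 with a term for sex and 0 with regional terms, where KO against KO_WT also had 0. Without the 3 libraries over 100 CPM of olfactory bulb markers, an alternative chosen after seeing the data, KO against KO_WT had 2 and the difference 0. Leaving out 1 library gave 1 to 6 for KO against KO_WT (6 without KO 3) and 0 to 1 for the difference. The members' median log2 fold change in KI against KI_WT was 0.017 on log2(RPKM + 0.1), and that of the wild types was 0.085 with a term for animal number range; the cause was not tested. No paired analysis was possible because the replicate numbers follow the order of the sample records and tie no animals together. With 3 animals a group the median 95% interval of a member reached 0.21 to either side on the log2 scale (0.30 for the difference of effects), and gene counts do not measure splicing or protein.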
